A study of Mus musculus with 12 samples.

Results

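Polycomb repressive complex 2 (PRC2) is the enzyme that methylates lysine 27 of histone H3. The 10 genes described here encode its subunits: the catalytic subunits Ezh2 and Ezh1, the core subunits Suz12, Eed and Rbbp7, and the accessory subunits Jarid2, Aebp2, Mtf2, Phf1 and Phf19. They were chosen by gene name from 14610 genes listed in the deposited tables, and comprise 52 of 43794 listed transcripts. All 10 were listed and passed the filter on low counts in every comparison.

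The samples were cultured mouse neural stem cells that carry PDGFB, the ligand of the PDGF receptors, as a model of diffuse intrinsic pontine glioma. The cells expressed histone H3.3 either as wild type (H3WT) or with the K27M substitution, in which methionine replaces lysine 27. Each genotype was given DMSO, the solvent, or 3 µM EPZ6438, a small-molecule inhibitor of the EZH2 enzyme, for 12 days. The 12 libraries of polyadenylated RNA form 4 groups of 3 replicates: H3WT with DMSO, H3WT with EPZ6438, K27M with DMSO and K27M with EPZ6438. All 4 groups carry PDGFB, and the labels do not say what drives PDGFB or either histone, or whether a line is 1 clone. Replicates are numbered, but nothing states that they were grown separately, so the spread behind each p-value is that of these libraries and may be technical.

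PRC2 deposits the repressive mark H3K27me3. EZH2 or EZH1 supplies the methyltransferase site, which is active only in a complex with SUZ12 and EED, and EED also binds the mark that the enzyme makes. H3K27M lowers H3K27me3 across much of the genome in diffuse midline glioma, and inhibitors such as EPZ6438 block the enzyme's active site. RNA levels of the subunits say nothing of enzyme activity, which was not measured in these libraries.

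Library totals ran from 7895878 to 24089044 estimated counts, and the K27M DMSO libraries were the deepest, from 22049393 upwards. All 14 neural stem cell markers were listed, with summed levels of 9900 to 11602 CPM (counts scaled to the same library size), while 6 of 8 microglial markers were not listed and the remaining 2 summed to at most 2.05 CPM. H3WT DMSO replicate 1 stood apart: the chi-square statistic per gene was 23.8 and 19.8 against replicates 2 and 3 of its group, and 3.07 between those. Its deviation from the mean of its own group fell with the GC content of the gene (Spearman -0.66 across genes), where replicates 2 and 3 had 0.54 and 0.47. H3WT inhibitor replicate 2 also stood off, with 9.9996 and 6.09 against replicates 1 and 3 of its group and 2.64 between those, and a Spearman value of 0.54 where they had -0.47 and -0.17. Within the K27M groups this value was -0.16, -0.27 and 0.40 for replicates 1, 2 and 3 with DMSO, and -0.48, 0.45 and 0.08 with EPZ6438. Replicate 1 thus had a negative value in all 4 groups, and replicate 2 a positive value in all but K27M DMSO. Whether libraries of the same number were prepared together is not stated. Members' calls that change without 1 library, or with the trend of expression on GC content removed from each library, are given with the values at that setting.

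In GRCm38 (GENCODE M21), Ezh2 spans chr6:47530139-47595341 on the minus strand and Suz12 chr11:79993106-80034123 on the plus strand. Jarid2 spans chr13:44729474-44921643 on the plus strand, Phf19 chr2:34893757-34914026 on the minus strand and Rbbp7 chrX:162760402-162779092 on the plus strand. Exons of 6 members overlap an opposite-strand gene (Ezh2, Suz12, Eed, Mtf2, Phf1 and Rbbp7). Whether counting used the strand is not stated, so reads that lie within the shared exon bases may come from either gene. The number of shared bases is not given here.

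E2F factors drive genes of the S phase, and Ezh2 is a known E2F target. RefSeq promoter windows of 300 bases (GRCm38.p6) were matched for all 10 genes, 14 windows in all, and searched on both strands for the 8-base E2F-type motifs TTTCCCGC, TTTGGCGC, TTTCGCGC and TTTGCCGC. A motif was present in 3 of the 10 genes, against 2.60% of 27025 genes with a window, 9 of 16 genes with a window on a DNA replication list and 1 of 18 on a mitosis list. The comparison is between unlike windows, since the members' have a median GC content of 63.5% and 23.5 CpG dinucleotides and all promoters have 52.7% and 7. The windows of these 3 genes are shown because they hold a motif. With the inhibitor all 3 genes fell in K27M cells, beside 27.3% of 13503 tested genes. Rbbp7, which holds no motif in its window, fell as well. Suz12 fell with overlapping groups and passed in 3 of 6 fits that left out 1 library. In H3WT cells Phf19 fell, beside 20.7% of 12870 genes. Ezh2 and Suz12 did not pass there in the fit without a term for replicate number. Under DMSO Ezh2 and Suz12 were higher in K27M than in H3WT cells, beside 29.8% of 13129 genes, and Phf19 did not pass. A part of the motif in these changes was not tested. Capitals mark the motif, which lies on the gene's own strand in Ezh2 and Suz12 and on the opposite strand in Phf19. The windows are chr6:47594981-47595280 for Ezh2 (minus strand), chr11:79992856-79993155 for Suz12 (plus strand) and chr2:34913927-34914226 for Phf19 (minus strand), each read in the direction of the gene.
Ezh2: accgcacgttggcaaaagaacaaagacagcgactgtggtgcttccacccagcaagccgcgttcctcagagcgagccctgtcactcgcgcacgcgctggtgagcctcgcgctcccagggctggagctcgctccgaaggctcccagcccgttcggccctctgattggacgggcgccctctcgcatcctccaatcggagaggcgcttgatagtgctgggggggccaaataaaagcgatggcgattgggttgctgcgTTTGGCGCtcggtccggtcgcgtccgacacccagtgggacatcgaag
Suz12: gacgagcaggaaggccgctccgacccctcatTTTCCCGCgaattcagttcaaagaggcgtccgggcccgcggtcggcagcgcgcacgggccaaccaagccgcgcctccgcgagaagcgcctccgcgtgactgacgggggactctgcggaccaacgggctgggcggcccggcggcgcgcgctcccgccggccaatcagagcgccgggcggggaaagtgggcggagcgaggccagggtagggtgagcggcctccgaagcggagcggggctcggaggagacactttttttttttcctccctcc
Phf19: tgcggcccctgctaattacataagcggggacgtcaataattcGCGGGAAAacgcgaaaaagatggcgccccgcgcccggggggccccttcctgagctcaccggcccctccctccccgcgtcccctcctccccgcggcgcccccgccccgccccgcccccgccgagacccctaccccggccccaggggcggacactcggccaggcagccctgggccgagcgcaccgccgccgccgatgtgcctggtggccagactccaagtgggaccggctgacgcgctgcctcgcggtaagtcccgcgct
Counted from the annotated start, the motif began at position 3 in Ezh2, -219 in Suz12 and -208 in Phf19. A match describes the letters in the window and is not a measured binding site.

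Levels per kilobase of transcript put Rbbp7, a histone-binding WD-repeat protein shared with other chromatin complexes, at rank 1 in every group, at 96.7 ± 6.33 CPM per kilobase in H3WT DMSO cells (SD, n = 3), and Ezh2 at rank 2, at 54.9 ± 6.02. Neither overlapped the gene ranked next in any group. Ezh1, the less active paralog that predominates in non-dividing cells, was at rank 9 or 10 in all 4 groups, at 3.89 ± 0.745 CPM per kilobase in H3WT DMSO cells, where it overlapped Phf1, at 4.67 ± 0.446. Suz12 had rank 3 in all groups but H3WT DMSO, at 36.2 ± 0.369 CPM per kilobase in K27M DMSO cells. In H3WT DMSO cells it had rank 4, at 15.8 ± 10.3, and overlapped Eed at 17.7 ± 1.03. Phf19 had rank 7 or 8 in the DMSO groups, at 10.6 ± 0.519 CPM per kilobase in H3WT and 9.63 ± 0.489 in K27M cells, and rank 9 in both inhibitor groups, at 5.06 ± 1.02 and 5.44 ± 0.591.

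**Figure D1:**
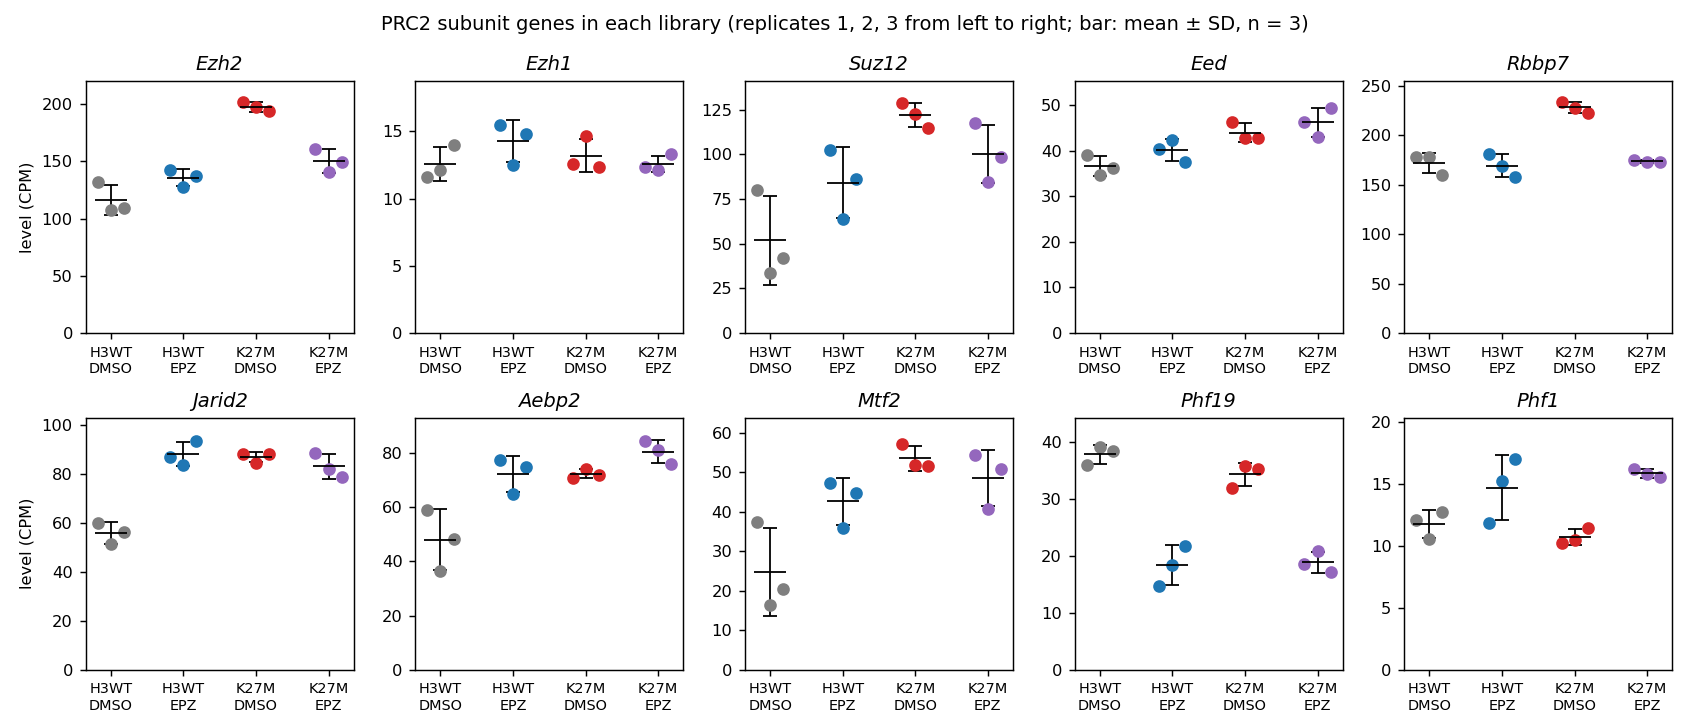
Level in CPM (vertical axes, linear from 0) of each PRC2 subunit gene in the 12 libraries, 1 panel per gene, with points for replicates and bars for the mean ± SD of 3 libraries in each group. Ezh2 lies between 194 and 202 CPM in K27M DMSO cells and at most 161 CPM in all other libraries, and Phf19 is lower in every inhibitor library than in any DMSO library.

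The comparison of K27M with H3WT cells under DMSO asked how the mutant histone's cells differ without the inhibitor. Of the 10 subunit genes, 7 were higher in K27M cells and none lower, where 29.8% of 13129 tested genes were called higher, 30.4% lower and 60.1% in either direction. The 7 were Ezh2, Suz12, Eed, Rbbp7, Jarid2, Aebp2 and Mtf2. The members' median log2 fold change was 0.55, and that of all genes was -0.00, and with the trend on GC content removed the members' median was 0.22. Groups did not overlap for 8 members, and for 70.2% of all genes. In bulk RNA, fewer cells of a type and less RNA per cell cannot be told apart. Summed levels of the 10 mature neuron markers were 618 to 947 CPM in H3WT and 975 to 1035 CPM in K27M cells under DMSO, with 1 of 9 tested markers called higher and 2 lower. Those of the 5 listed of 8 oligodendrocyte markers were 227 to 264 and 160 to 163 CPM, and those of the 14 neural stem cell markers 10989 to 11602 and 9900 to 10083 CPM. Neither pair of ranges overlapped, and nor did that of the neuron markers. Single markers went both ways: 1 of the 5 oligodendrocyte markers was called higher and 2 lower, with a median log2 fold change of 0.41. Of the 14 neural stem cell markers, 2 were called higher and 2 lower. With the GC trend removed these counts were 2 and 1, and 6 and 3, beside 20.1% of all genes higher and 22.9% lower. The part of these markers in the members' changes was not tested.

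Ezh2 measured 132, 108 and 109 CPM in the H3WT DMSO libraries and 202, 197 and 194 CPM in the K27M DMSO libraries. Every K27M library was above every H3WT library, and the log2 fold change was 0.79 ± 0.10 (SE; adjusted p = 0.00197). Rbbp7 measured 178, 178 and 160 CPM in H3WT cells and 234, 228 and 223 CPM in K27M cells. Its groups did not overlap either, and K27M cells were higher by 0.48 ± 0.06 (adjusted p = 0.00236). Suz12, whose product stabilises EZH2, measured 80.2, 33.5 and 42.1 CPM in H3WT cells and 129, 122 and 115 CPM in K27M cells. Replicate 1 of H3WT DMSO lay between the other H3WT libraries and the K27M libraries, and the log2 fold change was 1.25 ± 0.33 (adjusted p = 0.0177). Eed had the smallest called change, 0.27 ± 0.07 (adjusted p = 0.0212).

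Among the accessory subunits, Jarid2, a nucleosome-binding cofactor that helps to recruit PRC2 to its targets, measured 60.1, 51.3 and 56.1 CPM in H3WT DMSO cells and 88.3, 84.5 and 88.3 CPM in K27M DMSO cells. The groups did not overlap, with K27M cells higher by 0.68 ± 0.08 (adjusted p = 0.00187). Aebp2, a zinc finger partner of JARID2 in the same form of the complex, was higher by 0.62 ± 0.18 (adjusted p = 0.0239). Of the Polycomb-like proteins, which link the complex to CpG islands, Mtf2 was higher by 1.05 ± 0.29 (adjusted p = 0.0209), while Phf19 had -0.10 ± 0.06 (adjusted p = 0.186) and Phf1 -0.10 ± 0.10 (adjusted p = 0.406), and neither passed the test. Both turned positive with the GC trend removed, at 0.11 and 0.25, and did not pass. Ezh1 did not pass either, at 0.14 ± 0.10 (adjusted p = 0.289).

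Fold changes in this comparison followed GC content across all genes (Spearman -0.70 over 13071 genes, which are not independent replicates). The decile of genes lowest in GC had a median log2 fold change of 0.88 and the highest decile -0.35. The members' transcripts run from 39.5% GC in Mtf2 to 60.3% in Phf1, and genes within 1 percentage point of Mtf2 had a median of 0.94, beside 1.05 for Mtf2 itself. Genes of like GC content had medians of 0.46 beside Ezh2, 0.75 beside Suz12 and -0.01 beside Jarid2. With the GC trend removed, 4 members were called higher and none lower, beside 20.1% of all genes higher, 22.9% lower and 42.9% in either direction: Ezh2 at 0.33, Suz12 at 0.56, Jarid2 at 0.69 and Rbbp7 at 0.22. The value of Jarid2 was as large at that setting, and those of Ezh2, Suz12 and Rbbp7 were smaller by more than 1.5 times on the log2 scale. Eed, Aebp2 and Mtf2, at 0.12, 0.23 and 0.16, did not pass.

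Single libraries also decided calls here. Over the 6 fits that left out 1 library, 5026 to 9279 genes were called, where the fit on all 6 libraries called 7897 of 13129. Ezh2, Rbbp7 and Jarid2 passed in all 6 fits that left out 1 library. Without H3WT DMSO replicate 3, or without K27M DMSO replicate 1 or 2, Suz12 did not pass (adjusted p from 0.0543 to 0.0675), and Aebp2 and Mtf2 did not pass without those 3 or without K27M DMSO replicate 3 (adjusted p from 0.0512 to 0.0783). Eed passed without H3WT DMSO replicate 1 and did not pass without any other single library (adjusted p from 0.0523 to 0.0778). Without H3WT DMSO replicate 1 all 7 passed, with Suz12 at 1.73, Mtf2 at 1.48 and Ezh2 at 0.91. With that library left out and the GC trend removed as well, a setting chosen after seeing the data, Phf1 passed at 0.35 and Eed did not.

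**Figure D2:**
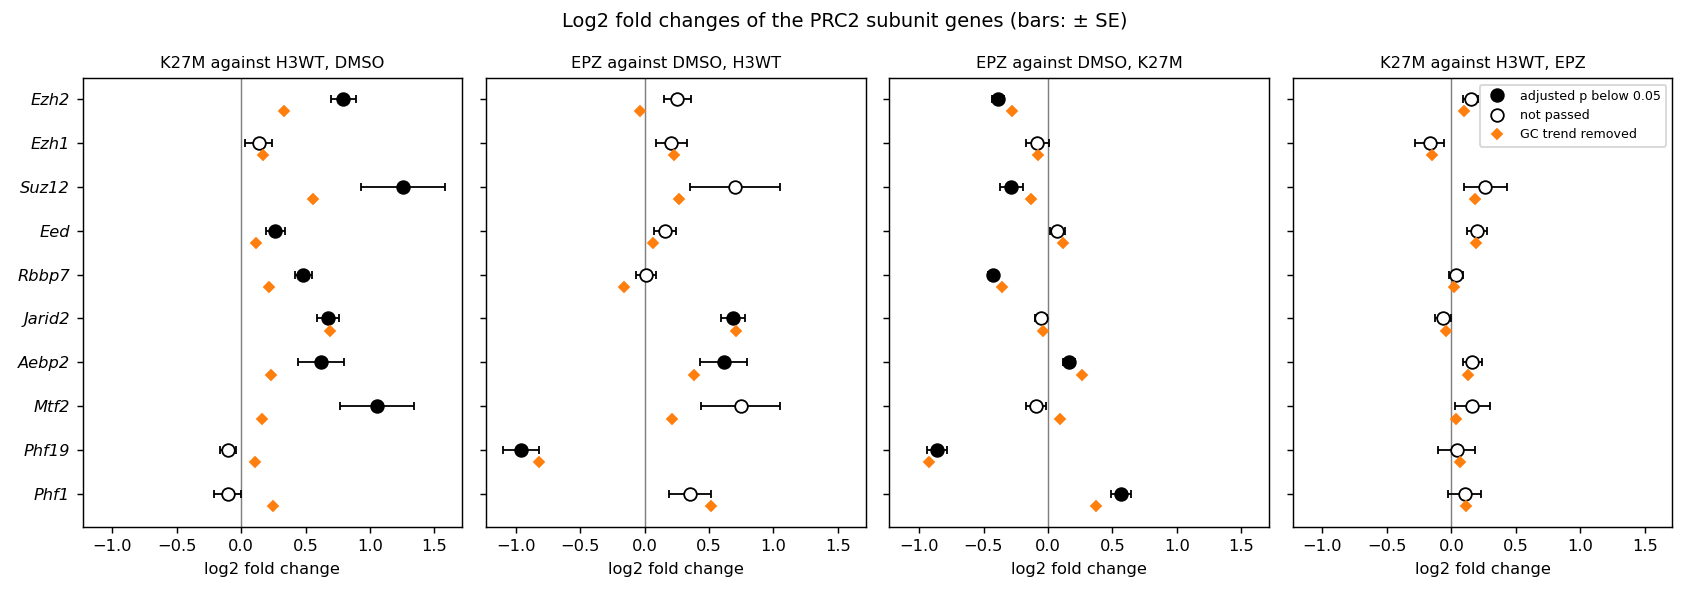
Log2 fold change of each PRC2 subunit gene (rows) in the 4 pairwise comparisons (panels), with bars of ± SE, filled circles for an adjusted p below 0.05, open circles for the rest and diamonds for the value with the GC trend removed. Phf19 lies at -0.96 and -0.86 under the inhibitor, and no member passed between genotypes under the inhibitor.

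**Figure D3:**
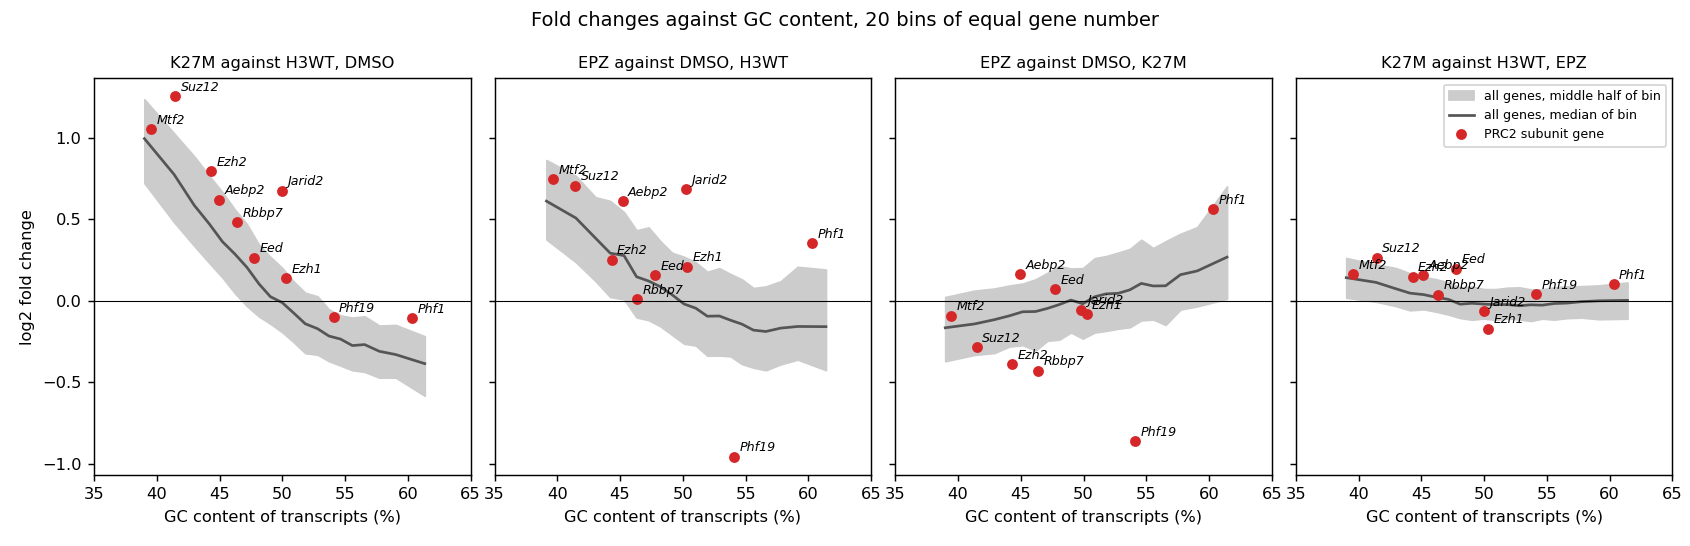
Log2 fold change (vertical axis) against the GC content of the transcripts in percent (horizontal axis), for all genes as binned medians and interquartile ranges and for the 10 PRC2 subunit genes as points. In K27M against H3WT cells under DMSO the medians fall from low to high GC, and Mtf2 lies near them while Jarid2 lies above.

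The next comparison asked what the inhibitor changed in H3WT cells, and shares the H3WT DMSO libraries with the one above. Of the 10 members, 2 rose and 1 fell, where 21.4% of 12870 tested genes rose, 20.7% fell and 42.1% did either. Jarid2 and Aebp2 rose and Phf19 fell. The members' median log2 fold change was 0.30, or 0.22 with the GC trend removed, beside 0.04 for all genes, and the groups did not overlap for 3 members and for 55.4% of all genes.

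Phf19, which binds methylated H3K36 through its Tudor domain, measured 36.0, 39.1 and 38.5 CPM with DMSO and 14.7, 18.5 and 21.7 CPM with EPZ6438 in H3WT cells. Each inhibitor library was below every DMSO library, and the log2 fold change was -0.96 ± 0.14 (adjusted p = 0.00211), a 1.94-fold lower level. Jarid2 measured 87.0, 83.8 and 93.6 CPM with EPZ6438, above all 3 DMSO libraries, and rose by 0.69 ± 0.09 (adjusted p = 0.00160). Aebp2 measured 59.1, 36.6 and 48.1 CPM with DMSO and 77.3, 64.9 and 74.8 CPM with EPZ6438. Its groups did not overlap, and it rose by 0.61 ± 0.19 (adjusted p = 0.0353). Aebp2 did not pass without H3WT DMSO replicate 3 or without any 1 of the 3 H3WT inhibitor libraries (adjusted p from 0.0555 to 0.106), whereas Jarid2 and Phf19 passed in all 6 fits that left out 1 library.

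The core and catalytic subunits did not pass in H3WT cells in the fit without a term for replicate number. Ezh2 measured 142, 128 and 137 CPM with EPZ6438, overlapping the DMSO libraries through replicate 1 of that group, with a log2 fold change of 0.25 ± 0.11 (adjusted p = 0.0913). Suz12 had 0.71 ± 0.35 (adjusted p = 0.139), Mtf2 0.75 ± 0.31 (adjusted p = 0.0867) and Rbbp7 0.01 ± 0.08 (adjusted p = 0.920). Without H3WT DMSO replicate 1, Ezh2 passed at 0.33, Suz12 at 1.15 and Mtf2 at 1.15, and without H3WT inhibitor replicate 1, Phf1 passed at 0.48. With replicate number as a block in edgeR's test, Ezh2 passed at 0.26 (adjusted p = 0.0206), Suz12 at 0.79 (adjusted p = 0.00616) and Mtf2 at 0.83 (adjusted p = 0.00977). With both the block and the GC correction, Suz12 at 0.29 passed, and Ezh2 at -0.04 and Mtf2 at 0.22 did not. With the GC trend removed, Ezh2 was at -0.04 and Rbbp7 at -0.16, neither of which passed, and Phf1 passed at 0.52, which made 3 members up and 1 down, beside 23.3% of all genes up, 22.7% down and 46% in either direction. Jarid2 at 0.71, Aebp2 at 0.38 and Phf19 at -0.82 passed at that setting too.

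In K27M cells the inhibitor comparison shares the K27M DMSO libraries with the genotype comparison. Of the 10 members, 2 rose and 4 fell, where 28.9% of 13503 tested genes rose, 27.3% fell and 56.3% did either. Phf1 and Aebp2 rose, and Ezh2, Suz12, Rbbp7 and Phf19 fell. The members' median log2 fold change was -0.09, or -0.06 with the GC trend removed, beside 0.01 for all genes, and the groups did not overlap for 5 members and for 63.1% of all genes. At the GC-corrected setting, again 2 rose and 4 fell, beside 30.4%, 28.4% and 58.9% of all genes up, down and in either direction.

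Ezh2 measured 161, 140 and 150 CPM with EPZ6438 in K27M cells, below all 3 DMSO libraries, with a log2 fold change of -0.39 ± 0.04 (adjusted p = 5.6e-05). Rbbp7 measured 175, 173 and 173 CPM with EPZ6438, also below all 3 DMSO libraries, with -0.43 ± 0.03 (adjusted p = 3.6e-06). Phf19 measured 32.0, 35.8 and 35.2 CPM with DMSO and 18.6, 20.8 and 17.2 CPM with EPZ6438. Its groups did not overlap, with a log2 fold change of -0.86 ± 0.08 (adjusted p = 1.2e-05), a 1.82-fold lower level. Phf1, another H3K36 methyl reader, measured 10.2, 10.5 and 11.4 CPM with DMSO and 16.2, 15.8 and 15.5 CPM with EPZ6438. All 3 inhibitor libraries were above the DMSO libraries, and it rose by 0.56 ± 0.08 (adjusted p = 0.000174).

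Jarid2 measured 88.8, 82.2 and 78.7 CPM with the inhibitor in K27M cells. The groups overlapped, and the log2 fold change of -0.05 ± 0.05 (adjusted p = 0.353) did not pass. Suz12 measured 117, 84.7 and 98.4 CPM with EPZ6438, and replicate 1 lay inside the DMSO range although the log2 fold change of -0.28 ± 0.09 (adjusted p = 0.0247) passed. It did not pass without K27M DMSO replicate 1 or 2 or without K27M inhibitor replicate 3 (adjusted p from 0.0561 to 0.0851). Aebp2 rose by 0.16 ± 0.05 (adjusted p = 0.0139) and did not pass without K27M DMSO replicate 1 or K27M inhibitor replicate 2 (adjusted p of 0.0570 and 0.0571). In a fit over all 12 libraries neither Suz12 nor Aebp2 passed (adjusted p of 0.437 and 0.361). Mtf2, at -0.09 ± 0.08, passed without K27M inhibitor replicate 1, at -0.19, and was at 0.09 with the GC trend removed.

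Cell cycle genes moved with the inhibitor as well. Over all tested genes, 21.4% rose and 20.7% fell in H3WT cells, and 28.9% rose and 27.3% fell in K27M cells. Of 20 DNA replication genes, 15 fell in H3WT and 17 in K27M cells and none rose, and of 20 mitosis genes, 9 and 19 fell and none rose. With replicate number as a block, 6 mitosis genes rose and 10 fell in H3WT cells. Shares of all genes at that setting are not given here. Ccnb2, the mitotic cyclin B2, fell by 1.10 ± 0.07 in H3WT and by 1.39 ± 0.04 in K27M cells, and Rrm2, a ribonucleotide reductase subunit, by 0.63 ± 0.03 in K27M cells, on the log2 scale. With EPZ6438, summed levels of the 10 mature neuron markers were 1224 to 1634 CPM in H3WT and 1460 to 1772 CPM in K27M cells, above the DMSO group of the same genotype. Single neuron markers went both ways: 4 of 9 tested rose and 1 fell in H3WT cells, and 6 of 10 rose and 2 fell in K27M cells. The oligodendrocyte markers summed to 109 to 116 CPM in H3WT and 85.7 to 91.6 CPM in K27M cells, below the DMSO groups, and Mog, Mag and Mobp were not listed. Of the 14 neural stem cell markers, 2 rose and 7 fell in H3WT cells and 4 rose and 7 fell in K27M cells, and their sums were 10082 to 10232 and 9916 to 10006 CPM. The 2 of 6 endothelial markers known in all 12 libraries were at 7.93 to 12.0 CPM with DMSO and 23.1 to 29.3 CPM with the inhibitor. Pecam1, Cdh5, Cldn5 and Tek were not known in all 12. In the comparisons that hold the K27M DMSO libraries, 3 of the 6 were listed and 2 were tested. The part of these changes in those of Ezh2, Rbbp7, Phf19, Jarid2 and the other members was not tested. Under DMSO, 29.8% of all genes were higher and 30.4% lower in K27M cells. Of the mitosis genes 11 were higher and 2 lower, led by Cenpe at 1.40 ± 0.41. Of the DNA replication genes 7 were higher and 7 lower. After removal of the GC trend these counts were 10 and 1 for mitosis and 1 and 4 for DNA replication, beside 20.1% and 22.9% of all genes.

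Between K27M and H3WT cells, both under the inhibitor, no member passed in edgeR's quasi-likelihood test or in DESeq2. In edgeR's test 2 members (Ezh2 and Eed) had an unadjusted p below 0.05, beside 2176 of all 13060 tested genes. Of 13060 tested genes 1.79% were called, 0.567% higher and 1.23% lower. The members' median was 0.13, or 0.08 with the GC trend removed, beside 0.01 for all genes. The largest value among the members was 0.26 ± 0.17 in Suz12, and Ezh2 had 0.15 ± 0.06 (adjusted p = 0.264). Jarid2 was at -0.06 ± 0.06, Phf19 at 0.04 ± 0.14 and Rbbp7 at 0.04 ± 0.05. The groups did not overlap for 2 members, Ezh2 and Eed, and for 23.5% of all genes, when these 6 libraries were normalized alone. With all 12 normalized together, the Ezh2 groups overlapped. No member passed with the GC trend removed either, beside 5.69% of all genes, 2.39% higher and 3.3% lower. A p that misses the threshold does not show that the genotypes were alike.

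The difference between genotypes in the response to the inhibitor was tested as an interaction over all 12 libraries. It was called for 3 members, all lower in K27M cells, beside 15.8% of 13040 genes called lower, 20% higher and 35.8% in either direction. The members' median was -0.40, or -0.15 with the GC trend removed, beside 0.02 for all genes. Jarid2 had -0.72 ± 0.10 (adjusted p = 0.000566), Ezh2 -0.62 ± 0.11 (adjusted p = 0.00238) and Rbbp7 -0.37 ± 0.08 (adjusted p = 0.00617). Jarid2 rose in H3WT cells and did not pass in K27M cells, whereas Ezh2 and Rbbp7 fell in K27M cells and did not pass in H3WT cells in the fits without a block. Phf19, which fell in both genotypes, had a difference of 0.09 ± 0.19 (adjusted p = 0.724), which was -0.13 with the GC trend removed. With the GC trend removed, Jarid2 at -0.75 and Ezh2 at -0.25 passed, beside 10.3% of all genes lower, 10.9% higher and 21.3% in either direction, and Rbbp7 at -0.16 did not. Without H3WT DMSO replicate 1, Suz12 at -1.48, Mtf2 at -1.33 and Aebp2 at -0.67 passed too, and without H3WT inhibitor replicate 2 Suz12 passed at -1.17. With replicate number as a block, Suz12 at -1.04, Mtf2 at -0.91 and Aebp2 at -0.44 passed as well. With both the block and the GC correction, Suz12 at -0.42 passed, and Mtf2 at -0.15 and Aebp2 at -0.12 did not.

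The levels over the 4 groups are set side by side here without a test. Ezh2 was at 198 ± 4.23 CPM in K27M DMSO cells, at 150 ± 10.2 in K27M inhibitor cells, 136 ± 7.30 in H3WT inhibitor cells and 116 ± 13.3 in H3WT DMSO cells. Jarid2 was lowest in H3WT DMSO cells, at 55.9 ± 4.39 CPM, and lay at 87.0 ± 2.18, 88.1 ± 4.96 and 83.2 ± 5.14 CPM in K27M DMSO, H3WT inhibitor and K27M inhibitor cells. Ezh1 lay between 11.6 and 15.5 CPM in all 12 libraries and passed in no comparison.

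Likeness to Ezh2 and Phf19 over the 12 libraries was the root mean square difference of centred log2 CPM. It was sought among 6730 genes at or above the median level, without clone, model and Rik names and pseudogenes. Among these the genes most like Ezh2 were Efr3a at 0.044, Ska2 at 0.053, Hccs at 0.062, Nmt2 at 0.063 and Topbp1 at 0.064. Their transcripts have 40.7 to 46.4% GC, beside 44.3% in Ezh2, whose own root mean square deviation was 0.29. The genes most like Phf19 among the same 6730 were Gpd1l at 0.11, Mfhas1 at 0.12, Pisd at 0.13, Mthfd1l at 0.13 and Tkt at 0.14. The deviation of Phf19 itself was 0.50. Phf19 was at percentile 45.5 by level, so less abundant genes that may be more like it were not searched.

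How reads were split among the transcripts of a gene is an estimate. Of 39 tested transcripts, 7 were called higher and 1 lower in K27M than in H3WT cells under DMSO, beside 5.94% and 7.02% of all transcripts tested, or 13% in either direction. With the inhibitor in H3WT cells 2 of 35 rose and 1 fell, beside 3.75%, 4.45% and 8.2%. In K27M cells 2 of 41 rose and 7 fell, beside 6.77%, 8.54% and 15.3%. Between genotypes under the inhibitor 0 of 37 were called in edgeR's test, beside 0.00307% of all transcripts. An unadjusted p below 0.05 was found for 5, and this was not counted over all transcripts. DESeq2 was not run on transcripts. In the authors' deposited table of each comparison, 11 of 45, 4 of 40, 6 of 49 and 0 of 43 member transcripts had a q-value below 0.05, beside 15.7%, 10.6%, 13.6% and 0.477% of all transcripts in that table.

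Ezh2 is carried mainly by the protein-coding transcripts Ezh2-201 and Ezh2-202. Ezh2-202 held 33.5, 37.1 and 36.8% of the gene's estimated counts in H3WT DMSO libraries and 40.6, 38.2 and 35.1% in K27M DMSO libraries. With EPZ6438 its share was 27.8, 27.7 and 30.8% in H3WT and 25.3, 28.9 and 28.3% in K27M cells. Every inhibitor library was below every DMSO library, in both genotypes. In K27M cells Ezh2-202 fell by 0.91 ± 0.07 (adjusted p = 0.00115) on the log2 scale, and Ezh2-201 had -0.22 ± 0.10 (adjusted p = 0.233). In H3WT cells Ezh2-202 had -0.10 ± 0.10 (adjusted p = 0.597). The difference between these transcripts was not tested.

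Jarid2 is carried mainly by Jarid2-208 and Jarid2-201. Jarid2-208 held 49.5, 45.1 and 47.3% of the gene's counts in H3WT DMSO libraries and 52.3 to 64.8% in the other 9 libraries. It was higher in K27M DMSO cells by 0.95 ± 0.12 (adjusted p = 0.0126) on the log2 scale and rose with the inhibitor in H3WT cells by 0.93 ± 0.14 (adjusted p = 0.0152). Jarid2-210 went the other way between genotypes, at -1.57 ± 0.27 (adjusted p = 0.0221) in K27M DMSO cells, and rose with the inhibitor in K27M cells by 1.43 ± 0.25 (adjusted p = 0.0149). In the authors' deposited table the q-values of this transcript were 0.667 and 0.821 in these comparisons, so it was not called there. Its share was 2.57 to 3.86% in K27M DMSO libraries and 7.74 to 22.7% elsewhere. Jarid2-201 held 28.4 to 32.2% in DMSO libraries and 16.3 to 26.7% in inhibitor libraries.

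Phf19 is nearly all Phf19-201, with 89.6% of its counts, and that transcript had -1.0 ± 0.16 (adjusted p = 0.0197) in H3WT and -1.0 ± 0.13 (adjusted p = 0.00514) in K27M cells with the inhibitor. The most abundant transcript of Rbbp7, Rbbp7-203, fell by 0.38 ± 0.04 (adjusted p = 0.00380) in K27M cells. A transcript that holds a minor part of Aebp2 fell by 0.89 ± 0.19 (adjusted p = 0.0316) in K27M cells, where the gene sum of Aebp2 rose, and its q-value in the authors' deposited table was 0.594. Eed and Phf1 each had 1 transcript over the 12 libraries.

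**Figure D4:**
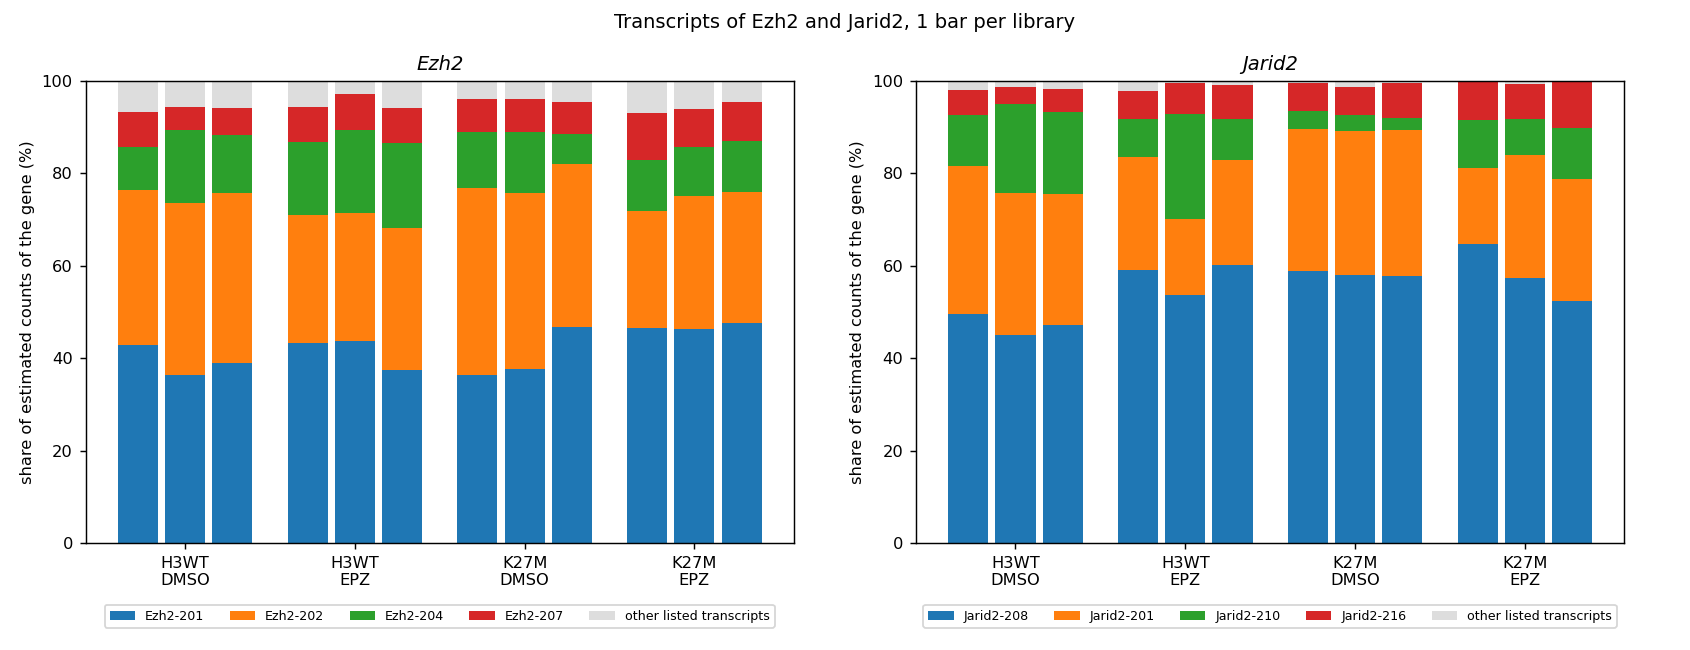
Share of the gene's estimated counts in percent (vertical axis) held by the 4 most abundant transcripts of Ezh2 (left) and Jarid2 (right), stacked, with 1 bar per library and the other listed transcripts in grey. The share of Ezh2-202 is 25.3 to 30.8% in the inhibitor libraries and 33.5 to 40.6% in the DMSO libraries, and Jarid2-210 is smallest in the 3 K27M DMSO libraries.

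Of 10 further PRC2 partners and H3K27 demethylases, 6 were tested, and Epop, Ezhip, Elob and Eloc were not listed under these names. Other names of these genes were not searched, so their absence does not show that they were not expressed. Under DMSO 5 were higher in K27M cells and 1 was lower, beside the 29.8% and 30.4% of all genes given above, and 4 and 1 with the GC trend removed, beside 20.1% and 22.9%. Lcorl was higher by 1.65 ± 0.36 (adjusted p = 0.0103), its paralog Lcor, a PRC2 partner, by 1.10 ± 0.29 (adjusted p = 0.0181) and Skida1 by 0.88 ± 0.12 (adjusted p = 0.00254). Kdm6a, which removes methyl groups from H3K27, was higher by 0.89 ± 0.21 (adjusted p = 0.0129), and its paralog Kdm6b had -0.21 ± 0.08 (adjusted p = 0.0482). Rbbp4, the paralog of Rbbp7, had 0.19 ± 0.03 (adjusted p = 0.00611), which turned to -0.37 with the GC trend removed, and Kdm6b turned to 0.13 and did not pass.

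Kdm6b rose with the inhibitor in both genotypes. It measured 79.9, 95.9 and 89.8 CPM with DMSO and 120, 119 and 113 CPM with EPZ6438 in H3WT cells. In K27M cells it measured 77.7, 67.4 and 77.4 CPM and then 104, 109 and 109 CPM. The groups did not overlap in either genotype, and the log2 fold changes were 0.45 ± 0.07 (adjusted p = 0.00241) and 0.53 ± 0.06 (adjusted p = 4.6e-05). No other gene of this list was called in H3WT cells in edgeR's test (21.4% of all genes rose and 20.7% fell), while DESeq2 called 3. After removal of the GC trend Skida1 at 0.39 and Rbbp4 at -0.42 passed as well, beside 23.3% of all genes up and 22.7% down. In K27M cells Lcorl fell by 0.88 ± 0.12, Skida1 by 0.39 ± 0.08 and Rbbp4 by 0.32 ± 0.03, beside 27.3% of all genes that fell and 28.9% that rose. Under the inhibitor no gene of this list was called between genotypes in edgeR's test or DESeq2. In edgeR's test 1 had an unadjusted p below 0.05, beside 2176 of all 13060 tested genes. The response differed between genotypes for Lcorl, Kdm6a, Skida1 and Rbbp4, all lower in K27M cells, beside 15.8% of all genes. After removal of the GC trend 3 of the list were called, beside 10.3% of all genes: Lcorl at -0.59, Skida1 at -0.75 and Kdm6b at -0.27. Kdm6a at -0.28 and Rbbp4 at 0.22 did not pass at that setting.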

How the data were processed

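Polyadenylated RNA of 12 libraries (4 groups of 3) was prepared by TruSeq chemistry for a HiSeq2500, per the labels' protocols. The submitters' processing notes name kallisto, sleuth and GRCm38 (mm10), with no version, and neither the annotation nor the use of strand in counting is given in the sources used here. Each of the 4 deposited tables holds 1 pair of groups. Per the file headers these hold estimated counts per transcript, a p-value and q-value, an effect on the natural log scale, and its standard error as a score. The authors had scaled the deposited estimated counts by 1 size factor per library, which was found from the values. Once it was undone, 45.6 to 58.4% of low values of genes with 1 transcript were whole (tolerance 0.01), and the same library agreed between tables to within 1.96e-09. Each listed transcript had at least 5 counts in 3 libraries of its table. Transcripts without a gene name, 0.449 to 0.577% of counts, were left out.

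Counts were summed per gene, rounded, and tested per pair with edgeR 4.0.16 in R 4.3.3 (filterByExpr, TMM, two-sided quasi-likelihood test, Benjamini-Hochberg over all genes, call at adjusted p below 0.05). The printed SE is the log2 fold change divided by the root of its F statistic. The interaction used the 34436 transcripts listed in all 4 tables, and levels the 37407 known in all 12 libraries, normalized together. The GC trend was a loess fit (span 0.4) per library on transcript GC content (GENCODE M21, 98.0% of transcripts matched), used as an offset. DESeq2 1.42.0 and the other alternatives are in the closing section. The tests were run on simulated counts with 1 dispersion for all genes, no GC trend and no outlying library, unlike these data. There, 51.9 to 64.3% of changes of 0.5 on the log2 scale were recovered in the pairwise comparisons, and 19.7% in the interaction. All 10 members and all measured genes of the second list were named, with at most 2 genes per cell cycle list and comparison and the 5 genes most like Ezh2 and Phf19. The members and lists were chosen with earlier results of these data known. Depth limits precision, and intervals cover the spread between libraries only.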

Additional observations from a re-analysis of the deposited data

Results flagged for a closer look

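The response to the inhibitor differed between genotypes for 3 members in the interaction test of edgeR. The inhibitor effect in K27M cells minus that in H3WT cells was -0.72 on the log2 scale for Jarid2 (adjusted p = 0.000566), -0.62 for Ezh2 (adjusted p = 0.00238) and -0.37 for Rbbp7 (adjusted p = 0.00617). Each was called in all 12 fits that left out 1 library. With the GC trend removed, the difference was -0.75 for Jarid2, -0.25 for Ezh2 and -0.16 for Rbbp7, and the last did not pass.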

How the results depend on the processing

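Of 780 values of single members under an alternative, 666 kept their direction and side of the threshold, 44 no longer passed, 30 newly passed and 40 changed sign. DESeq2 size factors and no filter on low counts changed no member's call. The GC trend removed left 4 members called between genotypes under DMSO, beside 42.9% of all genes. It gave 743 genes between genotypes under the inhibitor and 2774 for the interaction. DESeq2 called 5 members under the inhibitor in H3WT cells, beside 5017 of 12870 genes, and 5 in the interaction, beside 4708 of 13040. The 1 fit over 12 libraries called 6 in H3WT cells. A member count in this section with no count over all genes beside it does not set the members apart from other genes. The alternative without H3WT DMSO replicate 1 and with the GC trend removed was chosen after seeing the data: it called 6 members under the inhibitor in H3WT cells, and Phf1 between genotypes under DMSO reversed to 0.35.

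Same-numbered replicates correlated between -0.035 and 0.32, not all above 0.1, and differently numbered ones between -0.40 and 0.18. The numbers were not taken to pair the samples. In H3WT cells with DMSO and EPZ6438 the same-numbered values were 0.29, 0.32 and -0.03 for replicates 1, 2 and 3, so a link by number is not excluded there. With the number as a replicate block, 6 members passed under the inhibitor in H3WT cells and 6 in the interaction, and 539 genes between genotypes under the inhibitor. With the block and the GC trend removed, 4 members and 5209 genes passed between genotypes under DMSO, 6 members under the inhibitor in H3WT cells, and 806 genes between genotypes under the inhibitor, and Rbbp7 under the inhibitor in H3WT cells reversed to -0.16. 

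With the GC trend removed the values that changed sign were Phf1 0.25 and Phf19 0.11 between genotypes under DMSO, Ezh2 -0.038 and Rbbp7 -0.16 under the inhibitor in H3WT cells, Mtf2 0.090 under the inhibitor in K27M cells and Eed 0.044, Phf1 -0.14 and Phf19 -0.13 for the interaction. With the replicate block added to the GC correction the values that changed sign were Phf1 0.25 and Phf19 0.11 between genotypes under DMSO, Ezh2 -0.039 and Rbbp7 -0.16 under the inhibitor in H3WT cells, Mtf2 0.089 under the inhibitor in K27M cells and Eed 0.040, Phf1 -0.15 and Phf19 -0.12 for the interaction. With the GC trend removed and H3WT DMSO replicate 1 left out the values that changed sign were Phf1 0.35 and Phf19 0.13 between genotypes under DMSO, Ezh2 -0.045 and Rbbp7 -0.18 under the inhibitor in H3WT cells and Eed 0.012, Phf1 -0.24 and Phf19 -0.14 for the interaction. With DESeq2 the value that changed sign was Rbbp7 -0.0061 under the inhibitor in H3WT cells. With DESeq2 size factors the value that changed sign was Rbbp7 -0.0062 under the inhibitor in H3WT cells. In the fit over 12 libraries the values that changed sign were Rbbp7 -0.015 under the inhibitor in H3WT cells and Phf19 -0.095 between genotypes under the inhibitor. For the most abundant transcript alone the values that changed sign were Rbbp7 -0.014 under the inhibitor in H3WT cells and Suz12 -0.041 and Phf19 -0.16 between genotypes under the inhibitor. Of these, Phf1 between genotypes under DMSO with replicate 1 left out, and Rbbp7 in H3WT cells with the block, passed the test.

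Leaving out 1 library turned the sign of 5 uncalled values, with ranges of Rbbp7 -0.066 to 0.060 under the inhibitor in H3WT cells, Phf1 -0.021 to 0.21 between genotypes under the inhibitor, Phf19 -0.083 to 0.17 between genotypes under the inhibitor, Rbbp7 -0.0099 to 0.081 between genotypes under the inhibitor and Phf19 -0.079 to 0.18 for the interaction. Leaving out 1 library gave 5026 to 9279 genes and 3 to 7 members between genotypes under DMSO, 3344 to 7702 and 2 to 6 under the inhibitor in H3WT cells, 6626 to 7681 and 4 to 7 in K27M cells, 17 to 195 genes and no member between genotypes under the inhibitor, and 3238 to 6821 genes and 3 to 6 members for the interaction. The cause of these changes was not tested. With 3 libraries a group, small changes of any member may go undetected, including those of the weakly expressed Ezh1 and Phf1.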
